A study of Rattus norvegicus with 12 samples.

Results

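The genes described here encode zinc finger proteins, most of them regulators of transcription, measured in RCS rat chondrosarcoma chondrocytes. They were chosen by gene symbol, from names that begin with Zfp, Znf, Zbtb, Zkscan, Zscan, Zfx, Zfh, Zeb, Zc3h, Zmy, Zhx, Zmi or Zxd, and by a total of at least 60 reads over the 12 libraries. The symbols came from a supplementary table of the study that pairs 1998 of the 32754 counted Ensembl identifiers with a name. Of these, 44 genes matched by symbol and 33 of them reached the total. Just inside the limit lay Zkscan1 with 61 reads in all, Zfp871 with 63, Zbtb12 with 67 and Zfp238 with 71. Just outside it lay Zbtb39 with 58, Zfp821 with 57 and Zfp354a with 42, and the other 8 genes left out (Zfp280c, Zfp398, Zfp18, Zfp287, Zfp317, Zbtb49, Zfp13 and Zhx2) had 9 to 39.

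A zinc finger is a short fold held by a zinc ion, and arrays of the C2H2 type read DNA bases in a row. Beside their fingers many of these proteins carry a BTB, KRAB or SCAN domain: BTB domains pair the proteins and hold corepressors, KRAB domains bind TRIM28, which brings in heterochromatin enzymes, and SCAN domains pair with each other, while fingers of the CCCH type bind RNA. In growth plate chondrocytes FGF18 acts mainly through FGFR3 to restrain proliferation, and SOX9 holds the cartilage programme.

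The study asked which signals and transcripts FGF18 changes in chondrocytes, and whether FGFR3 and FGFR4 are needed for it. RNA was read in wild-type (WT) RCS cells and in RCS cells lacking FGFR3 and FGFR4 (FGFR3/4KO), each with vehicle or with FGF18, in 3 biological replicates for each of the 4 groups. All groups grew in DMEM with 5% adult bovine serum. The FGF18 groups received it overnight at a concentration the labels give as 50 µg/ml, whereas the study's own legends, those for its RNA data included, give the same figure in ng/ml. The labels call the groups without FGF18 untreated, and they are named vehicle here after the study. The FGFR3/4KO cells are 1 clone, so the lost receptors, the clone and its culture history cannot be told apart in any comparison of genotypes. Fgfr3 and Fgfr4 are not among the genes with a name, so their reads were not used here to check the genotype labels.

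Libraries were made by QuantSeq, which reads the 3′ end of each polyadenylated transcript, from 100 ng of RNA and read as single 75-base reads. One transcript gives about the same number of reads whatever its length, so levels are given as CPM, read counts scaled to library size with edgeR's TMM factors, with no length correction. Reads on genes ranged from 669585 to 947730 in WT vehicle, from 846957 to 1196647 in WT FGF18, from 373964 to 925006 in FGFR3/4KO vehicle and from 840149 to 1140741 in FGFR3/4KO FGF18. The lowest depth was that of FGFR3/4KO vehicle replicate 2, where 3 reads correspond to 8.02 CPM, against 2.51 CPM in the deepest library. Of all reads listed, 71.2% to 74.6% were set aside for low alignment quality in the FGFR3/4KO libraries and 77.0% to 79.8% in the WT libraries, a shift with genotype whose part in the results was not tested. Pairs of replicates differed by 1.58 to 1.90 times the variance of counting alone in the vehicle groups and by 2.06 to 6.25 times in the FGF18 groups, where WT FGF18 replicates 1 and 3 lay farthest apart.

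The labelled cell type was checked against 7 chondrocyte markers, whose summed level lay between 5469 and 6994 CPM in every library. Chad and Epyc were low, averaging 9.73 and 5.80 CPM over the 12 libraries, so that sum came almost wholly from the other markers. Sox9, the master factor of cartilage, averaged 1439 ± 61.4 CPM in WT vehicle, 1358 ± 89.2 in WT FGF18, 1785 ± 251 in FGFR3/4KO vehicle and 1973 ± 79.9 in FGFR3/4KO FGF18 (mean ± SD, n = 3 here and below). Fmod, a collagen-binding proteoglycan of cartilage, averaged 447 ± 35.5, 301 ± 37.9, 898 ± 66.4 and 1040.5 ± 134 CPM in the same order. Of the 6 markers that passed the filter on low counts (Epyc did not), Mia rose and Fmod and S100b fell with FGF18 in WT by edgeR's quasi-likelihood test at a Benjamini-Hochberg adjusted p under 0.05, the threshold used throughout. Their interactions with genotype were −0.37 (adjusted p = 0.159), 0.79 (0.00505) and 0.38 (0.368). In FGFR3/4KO against WT, Col11a2 and Fmod were higher and Chad and Mia lower with vehicle, and Sox9, Col11a2 and Fmod were higher and Chad and Mia lower with FGF18. Over all genes 25.7% were called for FGF18 in WT, 14.1% between genotypes with vehicle and 33.9% between genotypes with FGF18. The filter admitted Chad through the 3 WT FGF18 libraries and 1 WT vehicle library, with 0 in FGFR3/4KO, so its calls are not independent of it (with no filter the adjusted p was 0.0274 with vehicle and 0.0139 with FGF18). Several of these calls depended on single libraries or on the settings of the fit. With FGF18 in WT, Mia missed the threshold without WT FGF18 replicate 2 or WT vehicle replicate 2 or 3 (adjusted p 0.0536 to 0.0840), and S100b without WT FGF18 replicate 3 or any WT vehicle replicate (0.0575 to 0.130), its log2 change of −0.52 being −0.32 without WT FGF18 replicate 3. Between genotypes with vehicle, Col11a2 missed it without FGFR3/4KO replicate 1 or 2 or WT replicate 2 or 3 (0.0917 to 0.211), Chad without FGFR3/4KO replicate 1 or 3 or WT replicate 1 (0.0540 to 0.169) and Mia without any of the 6 libraries (0.0591 to 0.166), and with FGF18 Chad missed it without FGFR3/4KO replicate 2 (0.0828). With vehicle Col11a2 also missed it with a replicate block (0.0613), Mia with the block (0.0535) and with no filter on low counts (0.0701), and Chad in DESeq2 (0.0671).

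Markers of other cells were low but moved with the groups. The 5 fibroblast or osteoblast markers summed to between 26.98 and 30.4 CPM in WT vehicle, 66.5 and 86.1 in WT FGF18, 28.3 and 32.2 in FGFR3/4KO vehicle and 23.03 and 29.003 in FGFR3/4KO FGF18. Col5a2 was the most abundant of them in the WT FGF18 libraries, with 59.8, 54.5 and 23.4 CPM, and Lum had reads in 4 of 12 libraries. Of the 2 tested, Col5a2 rose with FGF18 in WT (log2 change 2.55, adjusted p = 1.77e-04) and was lower in FGFR3/4KO than in WT with FGF18 (−3.58, adjusted p = 4.40e-06, and −5.46 without FGFR3/4KO FGF18 replicate 1), and Thy1 passed in no comparison. Col5a2 passed the filter on low counts through the 3 WT FGF18 libraries and 1 WT vehicle library, with 0 in FGFR3/4KO, so its calls are not independent of that filter (with no filter the adjusted p was 6.82e-10 and 4.81e-16). The interaction for Col5a2 was −2.84 (adjusted p = 0.0778, 0.00318 without FGFR3/4KO FGF18 replicate 1 and 0.0301 without WT FGF18 replicate 3, 0.0152 with no filter, 0.0434 with 1 CPM in 3 libraries, up to 0.295 over 17 alternatives). The endothelial marker Flt1 had reads in 5 of 12 libraries and at most 3.70 CPM. The 3 liver markers summed to between 0 and 36.96 CPM, and Alb was the most abundant and the only 1 tested. Alb rose with FGF18 in WT (1.79, adjusted p = 0.0235, lost without WT FGF18 replicate 2 or 3 or WT vehicle replicate 1 or 3, 0.0567 to 0.169) and was higher in FGFR3/4KO than in WT with vehicle (2.01, adjusted p = 0.0239, lost without FGFR3/4KO or WT replicate 1 or 3, 0.0597 to 0.149) and lower with FGF18 (−2.34, adjusted p = 0.00307). Alb passed the filter through 2 WT FGF18 and 3 FGFR3/4KO vehicle libraries alone, the groups where it was high, so these calls are not independent of it (with no filter the adjusted p was 0.00245, 0.00138 and 3.16e-05). The part of these transcripts in the zinc finger results was not tested.

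The 33 genes fall into 7 with a BTB domain, 8 with a KRAB or SCAN domain, 3 of the CCCH type, 2 with homeodomains and 13 other C2H2 or MYM proteins. Their levels spanned a wide range around a median of 24.1 CPM for the 27 members tested, beside 41.6 CPM for all 7378 genes tested. Zc3h15, a CCCH protein that stabilises the GTPase DRG1, averaged 1199.5 CPM over the 12 libraries and stood far above the rest. Zfp148, a C2H2 factor of GC-rich promoters, came next with 240.1 CPM, before Zc3h7a with 93.1, Zc3h14 with 85.7, Zfx with 73.7, Zfp644 with 70.1 and Zfp523 with 62.7. Without Zc3h15 the other 32 members summed to 959, 1019.9 and 974 CPM in WT vehicle, 1075, 1024 and 915 in WT FGF18, 1269, 1144 and 1219 in FGFR3/4KO vehicle and 1119, 1115 and 1112 in FGFR3/4KO FGF18. Every FGFR3/4KO library lay above every WT library in that sum, but not once Zfp148 was also left out, when the other 31 members summed to between 789 and 880.0 CPM in the WT libraries and between 782 and 878 in the FGFR3/4KO libraries. Scaled by library total without TMM the genotypes overlapped in the sum without Zc3h15 as well, at 877 to 1096 CPM in WT and 1011 to 1228 in FGFR3/4KO. The KRAB or SCAN genes summed to 162, 152 and 147 CPM in WT vehicle, 154, 150.2 and 140.5 in WT FGF18, 110.3, 87.8 and 122 in FGFR3/4KO vehicle and 123, 113 and 85.7 in FGFR3/4KO FGF18. For these every FGFR3/4KO library lay below every WT library, and narrowly so without Zfp68, at 67.2 to 101.9 CPM in FGFR3/4KO and 103.3 to 126 in WT. By library total the full sum kept the genotypes apart, at 82.9 to 120.0 CPM in FGFR3/4KO and 134.6 to 167 in WT. Without Zfp68 they overlapped, at 65.4 to 100.5 and 99.2 to 130 CPM.

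FGF18 in WT cells, the comparison that asks what the ligand does where its receptors are present, gave no member chosen by the symbol rule past the threshold. None of the 27 tested members passed edgeR's quasi-likelihood test at a Benjamini-Hochberg adjusted p under 0.05, so 0 rose and 0 fell, beside 25.7% of all 7378 genes (12.9% higher and 12.8% lower). At an unadjusted p under 0.05 there were 2 members and 2668 genes in all, and DESeq2 called 0 members and, of 7375 genes, 733 higher and 786 lower. The members' median log2 change was 0.03, beside 0.02 over all genes, with 14 above and 13 below 0. The median standard error was 0.298 for members and 0.251 for all genes, and the 95% interval lay inside 1 log2 unit of no change for 14 of the 27.

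The 2 members with an unadjusted p under 0.05 were both CCCH genes. Zc3h15 stood at 1185, 1073 and 1139 CPM in WT vehicle, 917, 947 and 861 in WT FGF18, 1595, 1521 and 1259 in FGFR3/4KO vehicle and 1575, 1136 and 1185 in FGFR3/4KO FGF18. All 3 WT libraries with FGF18 lay below all 3 with vehicle, while the FGFR3/4KO groups overlapped. The log2 difference in WT was −0.32 ± 0.130 (SE, 95% interval −0.58 to −0.05) with an adjusted p of 0.0746 (0.0323 to 0.192 over 12 alternatives). Zc3h7a, which has been linked to microRNA processing, stood at 52.2, 70.7 and 66.0 CPM in WT vehicle, 84.4, 89.9 and 77.6 in WT FGF18, 133, 99.1 and 125 in FGFR3/4KO vehicle and 117, 104 and 98.6 in FGFR3/4KO FGF18. Here, with TMM scaling, the WT FGF18 libraries lay above the WT vehicle libraries and below every FGFR3/4KO library. By library total WT FGF18 replicate 3 (63 of 846957 reads) fell just below WT vehicle replicate 2 (52 of 698040). The log2 difference in WT was 0.41 ± 0.177 (SE, 95% interval 0.05 to 0.78) with an adjusted p of 0.0891 (0.0934 to 0.301 over 12 alternatives). In bulk RNA, fewer cells with a transcript and less of it per cell cannot be told apart.

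Across the other classes the WT differences lay on both sides of 0. The BTB genes tested ran from −0.58 for Zbtb11 to 0.51 for Zbtb44, and the KRAB genes from −0.31 for Zfp472 to 0.62 for Zfp386. Zeb2, a repressor that binds E-boxes and SMADs, stood at 0.67 and Zhx1, a homeodomain repressor, at −0.52. The other C2H2 and MYM genes ran from −0.59 for Zfp207, a mitotic protein that loads BUB3 on kinetochores, to 0.84 for Zmym3, a subunit of LSD1 complexes. Leaving out 1 library moved Zmym3 to between 0.55 (without WT vehicle replicate 1) and 1.41 (WT vehicle replicate 2) and Zbtb11 to between −0.92 (WT FGF18 replicate 1) and −0.11 (WT vehicle replicate 3). It moved Zbtb44 to between 0.24 (WT vehicle replicate 2) and 0.80 (WT vehicle replicate 1) and Zfp472 to between −0.56 (WT vehicle replicate 2) and −0.01 (WT vehicle replicate 1). Zfp386 was at 0.33 without WT vehicle replicate 1, and Zhx1 at −0.25 without WT FGF18 replicate 3. Over the 5 comparisons 103 of 124 member values that were not called moved by over 1.5 times or changed sign without some library. The 11 called values did not, but a call requires a value that is large against its error, so the contrast does not measure stability. With 1 library left out, 25 repeats of the members' calls lost the call and 41 kept it.

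**Figure D1:**
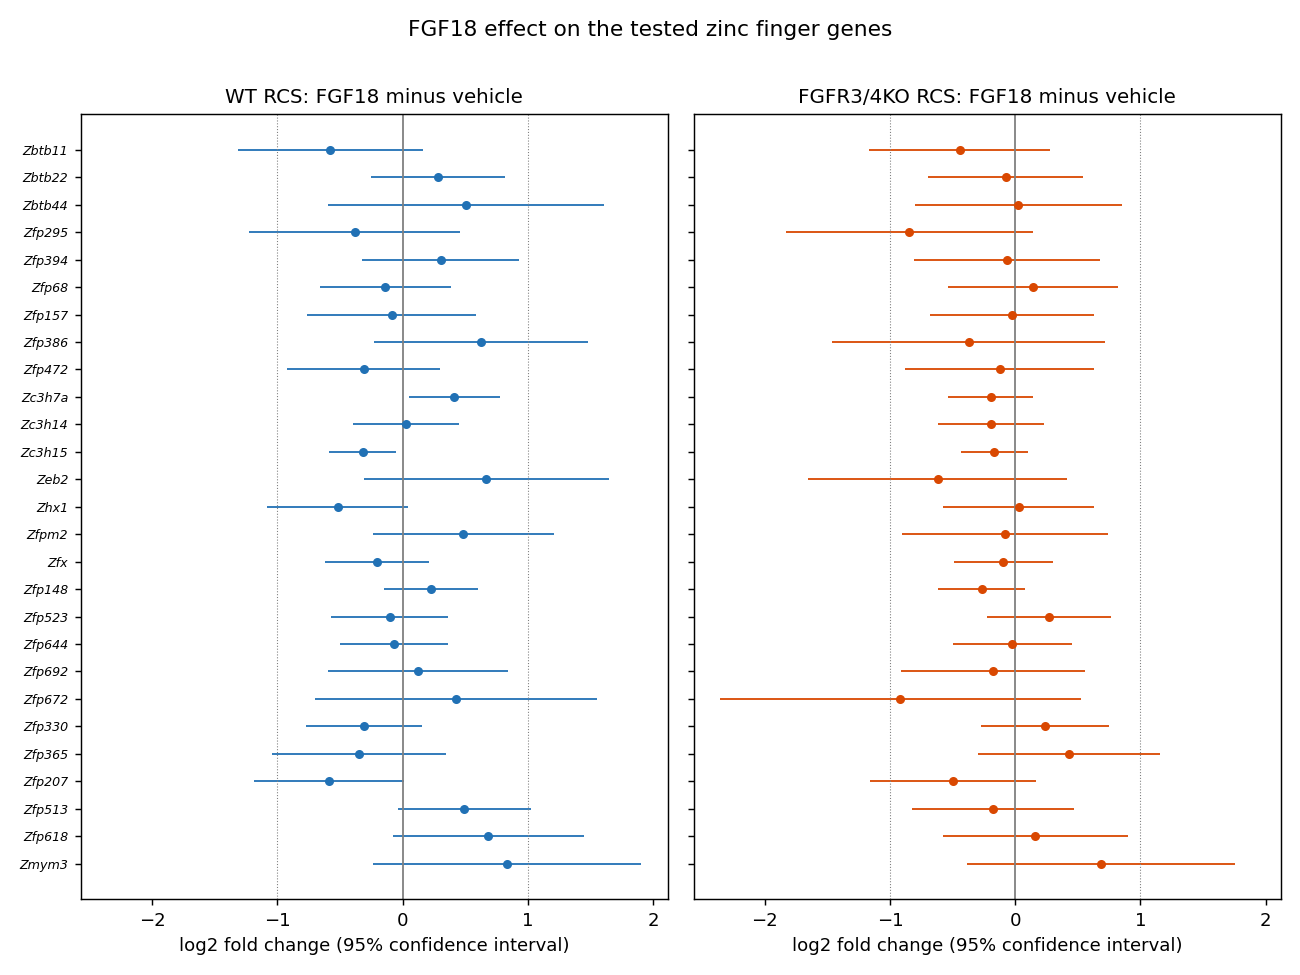
Log2 difference between FGF18 and vehicle for the 27 tested zinc finger genes in WT (left) and FGFR3/4KO (right) cells, ordered by class; points are edgeR estimates from 3 libraries a group and bars are 95% confidence intervals. In WT the intervals of Zc3h15 (−0.58 to −0.05) and Zc3h7a (0.05 to 0.78) lie off 0, and no gene passed the adjusted threshold in either genotype.

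FGF18 in FGFR3/4KO cells asks what the ligand changes without these receptors. Again 0 of the 27 members passed edgeR's test, beside 0 of 7378 genes (0%). At an unadjusted p under 0.05 there were 0 members and 478 genes in all, and DESeq2 called 0 members and 0 genes. With no filter on low counts edgeR still called 0 members, and 9 genes higher and 11 lower of 14534. The members' median log2 difference was −0.09, beside 0.01 over all genes, with 8 above and 19 below 0. Among members the adjusted p was 0.784 or more, and 19 of 27 had a 95% interval inside 1 log2 unit of no change. The largest differences were −0.92 for Zfp672, −0.85 for Zfp295 and 0.69 for Zmym3. Leaving out 1 library moved these to between −2.15 (without FGFR3/4KO FGF18 replicate 3) and −0.39 (without FGFR3/4KO vehicle replicate 1) for Zfp672, to −0.56 without FGFR3/4KO FGF18 replicate 2 for Zfp295 and to 1.20 without FGFR3/4KO vehicle replicate 1 for Zmym3. The 3 CCCH genes stood at −0.19 (Zc3h7a, −0.26 to −0.11 with 1 library left out), −0.19 (Zc3h14, which binds poly(A) RNA, −0.34 without FGFR3/4KO vehicle replicate 3 to −0.05 without FGFR3/4KO FGF18 replicate 3) and −0.17 (Zc3h15, −0.31 without FGFR3/4KO FGF18 replicate 1 to −0.07 without FGFR3/4KO FGF18 replicate 2).

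The interaction, which tests whether the FGF18 effect differs between the genotypes, was past the threshold for 0 of 27 members in edgeR, beside 10.9% of all genes. At an unadjusted p under 0.05 there were 1 member and 1698 genes, and DESeq2, which gave an adjusted p for 21 of the 27, called 0 of these and, of 7375 genes, 343 higher and 278 lower. That member was Zc3h7a, with a lower FGF18 effect in FGFR3/4KO than in WT (log2 difference −0.61 ± 0.243, SE) and an adjusted p of 0.115 (0.0975 to 0.291 over 17 alternatives). The median over members was −0.22 and over all genes −0.01, with median standard errors of 0.460 and 0.367. For 5 of the 27 members the interval lay inside 1 log2 unit of 0, so a difference of that size lay within the interval of the other members.

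Between genotypes with vehicle, 4 of 27 members differed beside 14.1% of all genes: 3 were higher in FGFR3/4KO (Zbtb44, Zc3h7a and Zfp148) beside 8.00%, and 1 was lower (Zfp68) beside 6.07%. The members' median log2 difference was −0.11 and that of all genes −0.01. At an unadjusted p under 0.05 there were 8 of 27 members and 2046 of 7378 genes, and DESeq2 called 3 members and, of 7375 genes, 507 higher and 325 lower. Among the 21 members that reached the level of the filter on low counts in 3 or more libraries of each genotype, which leaves out Zbtb44, 2 were higher and 1 was lower.

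Zbtb44, a BTB protein, stood at 7.25, 2.72 and 5.00 CPM in WT vehicle, 9.02, 6.70 and 4.93 in WT FGF18, 10.7, 22.7 and 15.3 in FGFR3/4KO vehicle and 10.5, 19.5 and 15.7 in FGFR3/4KO FGF18. All FGFR3/4KO libraries lay above all WT libraries, though the lowest WT library held only 2 reads of the gene. It passed the filter on low counts, 11.3 CPM by library total in 3 or more libraries, through 4 FGFR3/4KO libraries and 0 WT libraries, so it was tested only because it was high in FGFR3/4KO, and the call is not independent of the filter (with no filter the adjusted p was 0.0433). The vehicle means were 4.99 ± 2.26 in WT and 16.2 ± 6.02 CPM in FGFR3/4KO, a log2 difference of 1.60 ± 0.510 (SE) with an adjusted p of 0.0336 (0.0328 to 0.130 over 11 alternatives). It missed the threshold without FGFR3/4KO vehicle replicate 2 (adjusted p = 0.110) or 3 (0.106) or without WT vehicle replicate 2 (0.130) or 3 (0.102), and in DESeq2 (0.0665).

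Zfp68, a KRAB protein, stood at 36.2, 49.0 and 32.98 CPM in WT vehicle, 44.3, 24.9 and 37.0 in WT FGF18, 19.9, 14.2 and 19.7 in FGFR3/4KO vehicle and 22.4, 21.3 and 18.4 in FGFR3/4KO FGF18. All 6 FGFR3/4KO libraries lay below all 6 WT libraries. The vehicle means were 39.4 ± 8.44 and 17.9 ± 3.27 CPM, a log2 difference of −1.06 ± 0.309 (SE) with an adjusted p of 0.0197 (0.00754 to 0.102 over 12 alternatives). The call was lost without FGFR3/4KO vehicle replicate 1 (0.0549), 2 (0.0584) or 3 (0.0643) or WT vehicle replicate 2 (0.102).

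Zc3h7a had its highest levels in FGFR3/4KO vehicle, with no overlap between the vehicle groups. Their means were 62.9 ± 9.63 CPM in WT and 119 ± 17.8 in FGFR3/4KO, a log2 difference of 0.94 ± 0.180 (SE) with an adjusted p of 5.57e-04, and it was called under all 12 alternatives (5.88e-05 to 0.00709).

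Zfp148, also known as ZBP-89, which competes with SP1 for GC-rich DNA, stood at 145, 159 and 127 CPM in WT vehicle, 225, 143 and 127 in WT FGF18, 391, 337 and 341 in FGFR3/4KO vehicle and 241, 315 and 329.8 in FGFR3/4KO FGF18. With TMM scaling the FGFR3/4KO libraries were all above the WT libraries, and WT FGF18 replicate 1 stood apart from the other WT libraries. By library total the genotypes overlapped. FGFR3/4KO FGF18 replicate 1 (183 of 840149 reads) then fell below WT FGF18 replicate 1 (275 of 1196647). The vehicle means were 144 ± 16.1 and 356 ± 29.9 CPM, a log2 difference of 1.32 ± 0.181 (SE) with an adjusted p of 1.02e-05, called under all 12 alternatives (8.30e-14 to 4.52e-04).

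**Figure D2:**
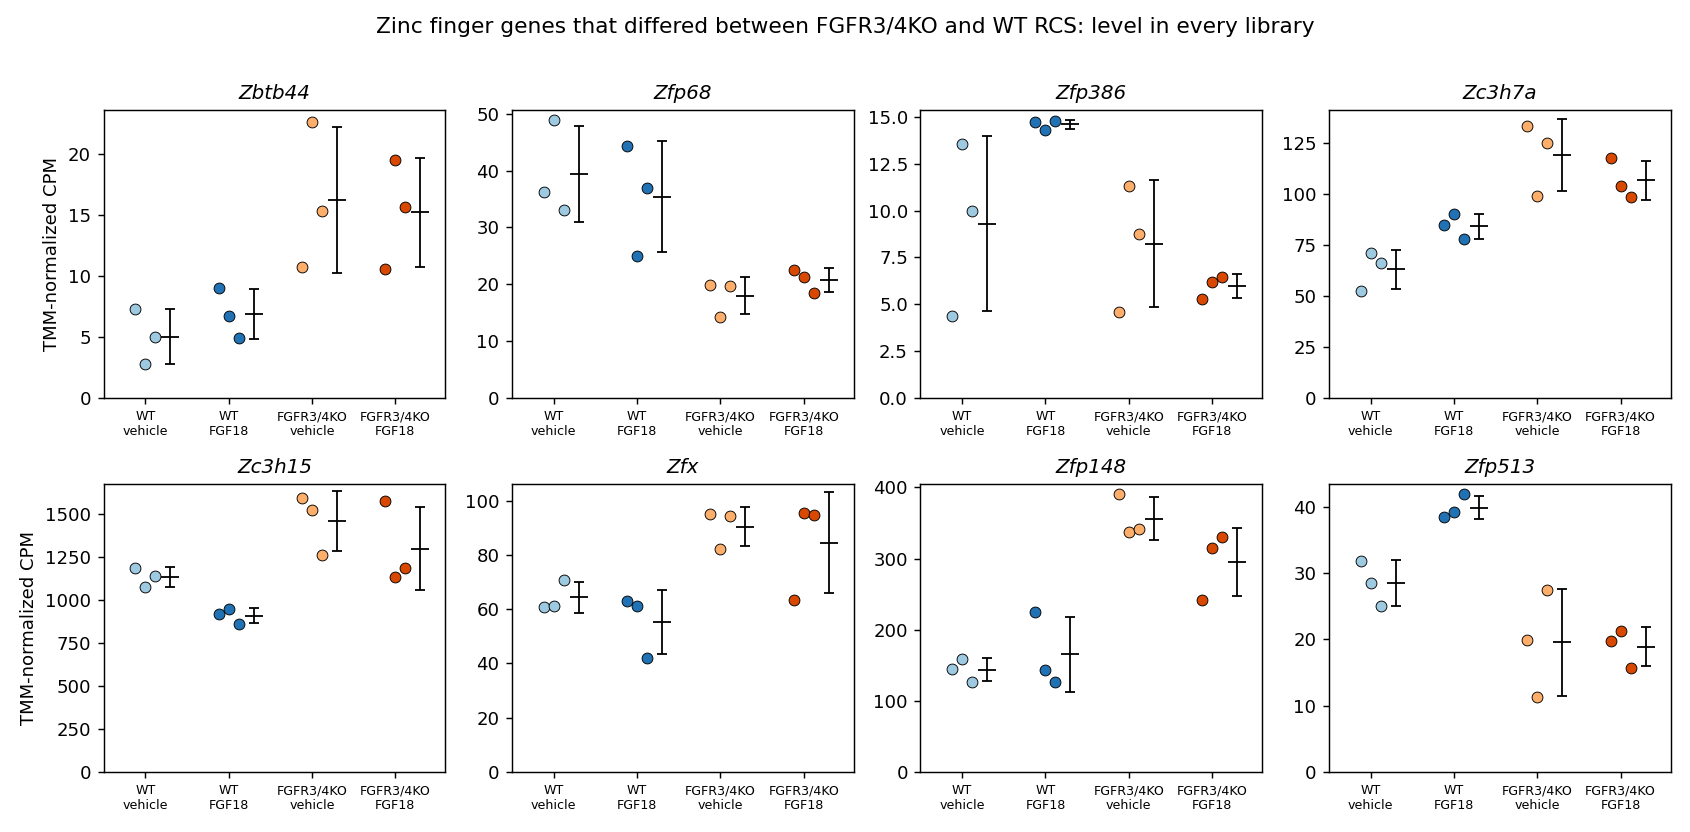
Level in CPM of the 8 zinc finger members that differed between genotypes, 1 panel a gene. Points are the 12 libraries by group, and bars are the mean and SD of 3. Zfp148 lies between 127 and 225 CPM in the WT libraries and between 241 and 391 in the FGFR3/4KO libraries, while Zfp68 lies between 24.9 and 49.0 and between 14.2 and 22.4. Scaled by library total without TMM, the genotypes overlap for Zfp148.

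Between genotypes with FGF18, 7 of 27 members differed beside 33.9% of all genes: 4 were higher in FGFR3/4KO (Zbtb44, Zc3h15, Zfx and Zfp148) beside 16.9%, and 3 were lower (Zfp68, Zfp386 and Zfp513) beside 17.0%. The members' median log2 difference was 0.02 and that of all genes −0.03, and 10 of 27 members and 3173 of 7378 genes had an unadjusted p under 0.05. DESeq2 called 4 members and, of 7375 genes, 1054 higher and 977 lower. Among the 21 members that passed the filter through each genotype, which leaves out Zbtb44 and Zfp386, 3 were higher and 2 lower. The percentages over all genes were not restricted in this way. The comparison has no library in common with the vehicle comparison, but both share libraries with the FGF18 comparisons.

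For Zbtb44 the FGF18 group means were 6.88 ± 2.05 CPM in WT and 15.2 ± 4.49 in FGFR3/4KO, a log2 difference of 1.12 ± 0.418 (SE) with an adjusted p of 0.0388 (0.0237 to 0.181 over 12 alternatives). That call was lost without FGFR3/4KO FGF18 replicate 2 (0.181) or 3 (0.0752) or WT FGF18 replicate 2 (0.0960) or 3 (0.0949), in DESeq2 (0.0966) and in the fit with a replicate block (0.0596). For Zfp68 the means were 35.4 ± 9.80 and 20.7 ± 2.05 CPM, a log2 difference of −0.78 ± 0.273 (SE) with an adjusted p of 0.0271 (0.0114 to 0.183 over 12 alternatives). It missed the threshold without FGFR3/4KO FGF18 replicate 2 (0.0617) or 3 (0.117) or WT FGF18 replicate 1 (0.183) or 3 (0.0588), in DESeq2 (0.0777), with no filter on low counts (0.0599), with a filter of 1 CPM in 3 libraries (0.0555) and with only the groups compared in the fit (0.0540), so 4 of 12 alternatives called it.

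Zfp386, a KRAB protein, stood at 4.35, 13.6 and 9.99 CPM in WT vehicle, 14.8, 14.3 and 14.8 in WT FGF18, 4.60, 11.3 and 8.77 in FGFR3/4KO vehicle and 5.27, 6.20 and 6.45 in FGFR3/4KO FGF18. With TMM scaling its WT FGF18 libraries lay above every other library, and the vehicle groups overlapped. By library total WT vehicle replicate 2 (10 of 698040 reads) lay slightly above WT FGF18 replicates 2 (15 of 1063903) and 3 (12 of 846957). Zfp386 passed the filter through all 3 WT FGF18 libraries and 1 WT vehicle library, with 0 in FGFR3/4KO. It was thus tested only because it was high in WT FGF18, and the call is not independent of the filter. The FGF18 means were 14.6 ± 0.244 and 5.97 ± 0.620 CPM, a log2 difference of −1.26 ± 0.433 (SE) with an adjusted p of 0.0258 (0.0240 to 0.0766 over 12 alternatives). The call rested on each of the 6 libraries, with an adjusted p of 0.0728, 0.0695 and 0.0683 without FGFR3/4KO FGF18 replicates 1, 2 and 3 and 0.0658, 0.0659 and 0.0536 without WT FGF18 replicates 1, 2 and 3, and it was lost in DESeq2 (0.0766) and with no filter on low counts (0.0542). With vehicle the difference was −0.26 (adjusted p = 0.784, −0.55 to 0.05 without WT vehicle replicate 1 or 2), and the interaction was −0.99 (adjusted p = 0.408), so a difference between both conditions was not shown.

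Zc3h15 had FGF18 means of 909 ± 43.5 CPM in WT and 1299 ± 241 in FGFR3/4KO, with every FGFR3/4KO library above every WT library. The log2 difference was 0.51 ± 0.130 (SE) with an adjusted p of 0.00301, called under all 12 alternatives (2.70e-04 to 0.0155). With vehicle it was 0.36 (adjusted p = 0.0633, 0.0434 without FGFR3/4KO vehicle replicate 3 and 0.00456 with only the groups compared, up to 0.252 over 12 alternatives), and the interaction was 0.15 (adjusted p = 0.694). For Zc3h7a, past the threshold with vehicle, the difference with FGF18 was 0.33 (adjusted p = 0.119), beside the interaction given above.

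Zfx, an X-linked activator needed for stem cell renewal, stood at 60.9, 61.2 and 71.0 CPM in WT vehicle, 63.1, 61.2 and 41.9 in WT FGF18, 94.99, 82.1 and 94.2 in FGFR3/4KO vehicle and 63.3, 95.7 and 94.9 in FGFR3/4KO FGF18. With FGF18 and TMM scaling the genotypes did not overlap, though FGFR3/4KO replicate 1 lay close to the highest WT library. By library total they did overlap. FGFR3/4KO FGF18 replicate 1 (48 of 840149 reads) then lay below WT FGF18 replicates 1 (77 of 1196647) and 2 (64 of 1063903). The FGF18 means were 55.4 ± 11.7 and 84.6 ± 18.5 CPM, a log2 difference of 0.61 ± 0.190 (SE) with an adjusted p of 0.0142 (0.00143 to 0.0689 over 12 alternatives). It missed the threshold without FGFR3/4KO FGF18 replicate 2 (0.0689) or 3 (0.0520) or WT FGF18 replicate 3 (0.0507). With vehicle the difference was 0.50 (adjusted p = 0.101, and 0.0429 with only the groups compared, up to 0.247 over 12 alternatives), and the interaction was 0.11 (adjusted p = 0.866).

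Zfp148 kept FGF18 means of 165 ± 52.8 CPM in WT and 295 ± 47.3 in FGFR3/4KO, a log2 difference of 0.83 ± 0.171 (SE) with an adjusted p of 4.33e-04, called under all 12 alternatives (2.90e-07 to 0.00515). Its interaction was −0.49 (adjusted p = 0.237), and −0.19 without WT FGF18 replicate 1 (adjusted p 0.0967 to 0.694 with 1 library left out).

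Zfp513, a C2H2 factor known from retinal development, stood at 31.9, 28.6 and 24.98 CPM in WT vehicle, 38.5, 39.2 and 41.9 in WT FGF18, 19.9, 11.3 and 27.4 in FGFR3/4KO vehicle and 19.8, 21.3 and 15.7 in FGFR3/4KO FGF18. Its WT FGF18 libraries lay above all others, and the vehicle groups overlapped. The FGF18 means were 39.9 ± 1.78 and 18.9 ± 2.90 CPM, a log2 difference of −1.07 ± 0.265 (SE) with an adjusted p of 0.00244, called under all 12 alternatives (0.00260 to 0.0250). With vehicle the difference was −0.40 (adjusted p = 0.427, −0.75 without FGFR3/4KO vehicle replicate 3 and −0.23 without replicate 2), with FGF18 in WT it was 0.49 (adjusted p = 0.170), and the interaction was −0.67 (adjusted p = 0.342, and −0.28 without FGFR3/4KO vehicle replicate 3).

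Near the threshold with FGF18 lay 3 further members, all lower in FGFR3/4KO by their estimate. Zbtb22 differed by −0.66 (adjusted p = 0.0527, 0.00772 to 0.227 over 12 alternatives), and passed without WT FGF18 replicate 1 (0.00772). Zfp394, a KRAB and SCAN protein, differed by −0.69 (adjusted p = 0.0843, 0.0206 to 0.439 over 12 alternatives), and passed without FGFR3/4KO FGF18 replicate 2 (0.0472) or WT FGF18 replicate 3 (0.0206), while without FGFR3/4KO FGF18 replicate 3 the difference was −0.36. Zfp672 differed by −1.45 (adjusted p = 0.0634, 0.0133 to 0.252 over 11 alternatives), and passed without FGFR3/4KO FGF18 replicate 3 (log2 difference −2.68, adjusted p = 0.0133) or WT FGF18 replicate 1 (0.0445), the difference lying between −2.68 and −1.05 over the libraries left out. It needed the WT FGF18 libraries, where it was high, to pass the filter on low counts (3 WT libraries and 1 FGFR3/4KO library reached the level), so this test is not independent of the filter. With no filter the adjusted p was 0.0543.

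The 19 tested members that passed in no comparison, and the 6 not tested, are described by their levels. Among BTB genes Zbtb22 was highest, with group means of 33.6 ± 3.86 CPM in WT vehicle, 41.5 ± 13.3 in WT FGF18, 27.1 ± 3.06 in FGFR3/4KO vehicle and 25.4 ± 4.20 in FGFR3/4KO FGF18, and Zbtb12 was lowest, at 6.21 CPM over all libraries. Between them lay Zbtb11, a repressor needed in blood cell development, at 22.4 CPM, Zfp295 (Zbtb21) at 11.4, Zbtb24, which is mutated in an immunodeficiency with unstable centromeres, at 9.62, and Zfp238 (Zbtb18), a repressor in neurons and muscle, at 6.23. Among KRAB or SCAN genes Zfp472 was highest, with means of 33.7 ± 13.7, 27.1 ± 2.53, 17.7 ± 5.62 and 18.0 ± 6.16 CPM in the same order of groups, and Zkscan1 lowest, at 5.92 CPM. For Zfp472 the vehicle groups overlapped, and the log2 difference of −0.82 between genotypes had an adjusted p of 0.114. Zfp157 averaged 23.6 CPM, Zfp394 23.3, Zfp496 8.08 and Zfp871 6.07.

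Zc3h14, the remaining CCCH gene, averaged 77.4 ± 8.18 CPM in WT vehicle, 78.7 ± 22.8 in WT FGF18, 101 ± 18.1 in FGFR3/4KO vehicle and 86.2 ± 11.8 in FGFR3/4KO FGF18, with overlapping groups. Zhx1 averaged 44.2 ± 7.21, 30.02 ± 13.3, 34.8 ± 5.72 and 35.6 ± 6.23 CPM in that order, and Zeb2 7.16 ± 1.39, 11.1 ± 2.27, 10.6 ± 1.91 and 6.96 ± 4.39 CPM. Among the other C2H2 and MYM genes Zfp644, a partner of the histone methyltransferases G9a and GLP, was highest, at 77.1 ± 6.72, 73.3 ± 21.1, 65.4 ± 13.3 and 64.6 ± 17.3 CPM. The lowest was Zfp672, at 8.49 ± 3.30, 11.5 ± 3.79, 6.64 ± 6.19 and 3.79 ± 3.90 CPM, with 0 reads in FGFR3/4KO vehicle replicate 2, where 3 reads would be 8.02 CPM. Between them lay Zfp523 at 62.7 CPM, Zfp330 at 38.7, Zfp207 at 26.2, Zfp692 at 22.2, Zfp365 at 18.9, Zfp618 at 17.1, Zfpm2 (FOG2), a cofactor of GATA factors, at 13.7, and Zmym3 at 9.49.

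Of the 33 members 6 were not tested, since they reached 11.3 CPM in at most 2 libraries: Zbtb12 (1 to 12 reads a library), Zbtb24 (3 to 16), Zfp238 (1 to 18), Zkscan1 (1 to 8), Zfp496 (1 to 18) and Zfp871 (0 to 11). Totals do not separate them from the tested members, since Zbtb24 had 102 reads in all and the tested Zfp672 had 81. Of the 27 tested, 21 reached that level in 3 or more libraries of each genotype, while Zbtb44, Zeb2 and Zmym3 needed FGFR3/4KO libraries and Zfp295, Zfp386 and Zfp672 needed WT libraries to pass. In a fit without the filter on low counts none of the 6 passed in any comparison by edgeR, and the lowest adjusted p was 0.215, for Zfp871 between genotypes with FGF18 (log2 difference −1.18).

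Genes that work beside these factors were followed in fixed lists. Of 14 other zinc finger factors, 10 were tested, and with FGF18 in WT 3 rose and 1 fell, beside 12.9% and 12.8% of all genes, with a median log2 change of 0.46 beside 0.02. Bcl6, a BTB zinc finger repressor named outside the symbol rule, stood at 2.90, 9.52 and 10.99 CPM in WT vehicle, 23.8, 25.8 and 25.9 in WT FGF18, 6.13, 14.2 and 18.6 in FGFR3/4KO vehicle and 17.1, 15.1 and 5.53 in FGFR3/4KO FGF18. Its WT FGF18 libraries lay above all others. It rose with FGF18 in WT by 1.60 ± 0.433 (SE, adjusted p = 0.00688), with an interaction of −1.73 (adjusted p = 0.0876, 0.0495 without FGFR3/4KO vehicle replicate 1, up to 0.446 over 17 alternatives, log2 difference −2.09 to −1.15 with 1 library left out). With FGF18 it was lower in FGFR3/4KO (log2 difference −1.03, adjusted p = 0.0413), a call lost without FGFR3/4KO replicate 3 or any WT replicate (0.0640 to 0.267, log2 difference −0.61 without FGFR3/4KO replicate 3), in DESeq2 (0.0934) and with the replicate block (0.0523). In that comparison edgeR called 0 of the 10 higher and 1 lower, beside 16.9% and 17.0% of all genes. Klf3 rose in WT by 0.63 (adjusted p = 0.0141), but not without WT FGF18 replicate 1 or 2 or WT vehicle replicate 2 or 3 (0.0518 to 0.0702), with an interaction of −0.59 (adjusted p = 0.194). Wiz, a partner of G9a and GLP, rose by 0.76 (adjusted p = 0.0395), with an interaction of −0.46 (adjusted p = 0.518, log2 difference −0.65 to −0.26 with 1 library left out). That call was made under 3 of 12 alternatives and lost without WT FGF18 replicate 1 or 3 or WT vehicle replicate 1 or 3 (0.0911 to 0.183), in DESeq2 (0.102), with no filter (0.0946), with 1 CPM in 3 libraries (0.0750), with only the groups compared (0.0633) and with the replicate block (0.0516). Yy1 fell by 0.70 (adjusted p = 0.0460), but not without WT FGF18 replicate 1 or 3 or any WT vehicle replicate (0.0970 to 0.195), nor in DESeq2 (0.0709) or with only the groups compared (0.0619). Its log2 change was −1.245 without WT FGF18 replicate 2 and −0.40 without replicate 3. The Yy1 interaction was −0.04 (adjusted p = 0.967), and lay between −0.315 and 0.52 with 1 library left out. Of the 10 edgeR and DESeq2 each called 0 for FGF18 in FGFR3/4KO, beside 0% of all genes in edgeR, 0 for the interaction (9 with an adjusted p in DESeq2), beside 10.9%, and 0 between genotypes with vehicle, beside 14.1%. At an unadjusted p under 0.05 there were 1, 2 and 1 in that order, beside 478, 1698 and 2046 of 7378 genes.

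Of 25 subunits of corepressor and silencing complexes, which many zinc finger repressors recruit, 20 were tested. With FGF18 in WT 1 rose and 2 fell, beside 12.9% and 12.8% of all genes, with a median log2 change of 0.07 beside 0.02. Ezh2, the methyltransferase of Polycomb complex PRC2, stood at 381, 379 and 429.7 CPM in WT vehicle, 213, 195 and 138 in WT FGF18, 472, 535 and 480.0 in FGFR3/4KO vehicle and 427, 459 and 461 in FGFR3/4KO FGF18. Its WT FGF18 libraries lay below all others. It fell by 1.11 ± 0.143 (SE, adjusted p = 1.24e-06), and the interaction was 0.98 ± 0.198 (SE, adjusted p = 0.00129). Rbbp7, a histone chaperone of the same and other complexes, fell by 0.60 (adjusted p = 0.00535, interaction 0.44 with an adjusted p of 0.228, and 0.29 to 0.56 with 1 library left out). Phf21a, an LSD1 complex subunit, rose by 0.78 (adjusted p = 0.00196, interaction −0.57 with an adjusted p of 0.194). In FGFR3/4KO 0 of 20 passed with FGF18 by edgeR or DESeq2, beside 0% of all genes in edgeR, with 2 at an unadjusted p under 0.05, beside 478 of 7378 genes. Between genotypes with vehicle 1 of 20 differed, beside 14.1% of all genes: Tbl1x was higher in FGFR3/4KO by 0.62 (adjusted p = 0.0235), but not without FGFR3/4KO replicate 1 (0.133) or WT replicate 1 (0.104) or 2 (0.0596). Its interaction was −0.18 (adjusted p = 0.739), and lay between −0.35 and −0.04 with 1 library left out. With FGF18 3 of 20 differed, beside 33.9% of all genes: Ezh2 (1.29, adjusted p = 6.66e-08) and Rbbp7 (0.67, adjusted p = 0.00128) were higher and Rybp (−1.05, adjusted p = 0.00337) lower in FGFR3/4KO. For Rybp, a subunit of Polycomb complex PRC1, the interaction was −1.15 (adjusted p = 0.0704, and 0.0295 without FGFR3/4KO vehicle replicate 1, 0.0295 to 0.341 over 17 alternatives).

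Zbtb24 activates Cdca7, and Cdca7 and its relative Cdca7l were measured although Zbtb24 itself was not tested. With FGF18 in WT both fell, beside 12.8% of all genes, Cdca7 by 1.14 (adjusted p = 0.0136, lost without WT FGF18 replicate 2, 0.0708, or WT vehicle replicate 1, 0.0516) and Cdca7l by 0.78 (adjusted p = 0.00323). Their interactions were 1.28 (adjusted p = 0.0839, and 0.0257 to 0.0360 without FGFR3/4KO vehicle replicate 3 or WT FGF18 replicate 3, up to 0.212 over 17 alternatives) and 0.72 (adjusted p = 0.0917, and 0.0172 without FGFR3/4KO vehicle replicate 1, up to 0.230). With FGF18 both were higher in FGFR3/4KO than in WT, beside 16.9% of all genes, Cdca7 by 0.97 (adjusted p = 0.0256, lost without FGFR3/4KO replicate 2 or WT replicate 1 or 2, 0.0735 to 0.106, and in DESeq2, 0.0579) and Cdca7l by 0.50 (adjusted p = 0.0443, lost without any WT replicate or FGFR3/4KO replicate 2 or 3, 0.0571 to 0.145, in DESeq2, 0.0859, with only the groups compared, 0.0558, and with the replicate block, 0.0506). Neither passed in edgeR or DESeq2 for FGF18 in FGFR3/4KO or between genotypes with vehicle, with 0 at an unadjusted p under 0.05 in each. Over all genes edgeR called 0% and 14.1%, with 478 and 2046 of 7378 at that unadjusted p.

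Of 3 FGF feedback and target genes 2 were tested. Over all genes 12.9% rose with FGF18 in WT, and 8.00% were higher with vehicle and 17.0% lower with FGF18 in FGFR3/4KO than in WT. Etv5, an ETS factor induced by FGF signals, stood at 11.6, 8.16 and 12.99 CPM in WT vehicle, 59.0, 68.9 and 83.8 in WT FGF18, 59.8, 53.8 and 54.8 in FGFR3/4KO vehicle and 104, 68.2 and 119 in FGFR3/4KO FGF18. It was low in WT vehicle alone, and rose there with FGF18 by 2.64 ± 0.286 (SE, adjusted p = 8.83e-08), with an interaction of −1.86 ± 0.375 (SE, adjusted p = 0.00126). With vehicle it was higher in FGFR3/4KO by 2.33 (adjusted p = 6.80e-06). Spred1, a feedback inhibitor of RAS signals, was lower in FGFR3/4KO with FGF18 (log2 difference −2.08, adjusted p = 0.00145, interaction −1.29 with an adjusted p of 0.350, and −2.01 to −0.97 with 1 library left out), and Spred2 was not tested. Spred1 passed the filter on low counts through 2 WT FGF18 libraries and 1 WT vehicle library, with 0 in FGFR3/4KO, so that call is not independent of the filter (adjusted p = 9.33e-04 with no filter, 9.33e-04 to 0.0172 over its alternatives).

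Positions were taken from RefSeq on build GRCr8, where 32 of the 33 members matched a symbol, 2 of them by a synonym. They lie on 13 chromosomes, with 5 each on chromosomes 10 and 20. Zfp692 and Zfp672 are neighbours on chromosome 10 with 0 genes between them. On chromosome 12 Zfp68 and Zfp157 have 12 genes between them, and Zfp157 and Zkscan1 have 21.

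RefSeq also gave the 250 bases upstream of the start of 24 members, among them 7 of the 8 that differed between genotypes (all but Zfx). The GC box GGGCGG, read on both strands, occurred in 15 of 24 members and 6 of the 7 (all but Zfp513), beside 30.5% of all 33469 promoters. Here and below a member counted if any promoter listed for it matched. The shares are over all listed promoters, not over expressed genes alone, so the counts and shares are not strictly alike. ATTGG, the core of the CCAAT box, occurred in 10 of 24 and 4 of the 7, beside 34% of all, and AGGCCT in 5 of 24 and 1 of the 7 (Zc3h7a), beside 8.71%. The ETS motif CCGGAAG occurred in 2 of 24 (Zc3h15 and Zkscan1), beside 7.27%, and the E-box CACCTG in 0 of 24, beside 15.9%. The promoters of the 3 members that differed between genotypes both with and without FGF18 are shown, chosen after their values were seen, at chr8:37724438-37724687 on the plus strand for Zbtb44, chr12:21139661-21139910 on the plus strand for Zfp68 and chr11:80890878-80891127 on the minus strand for Zfp148 (GRCr8). Capitals mark GGGCGG or its reverse complement CCGCCC, and a match is a description of the letters only.
Zbtb44: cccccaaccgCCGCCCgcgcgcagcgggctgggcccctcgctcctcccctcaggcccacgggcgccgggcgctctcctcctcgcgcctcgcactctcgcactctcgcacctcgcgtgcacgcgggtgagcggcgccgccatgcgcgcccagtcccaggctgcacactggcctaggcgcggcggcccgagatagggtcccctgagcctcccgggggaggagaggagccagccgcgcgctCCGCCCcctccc
Zfp68: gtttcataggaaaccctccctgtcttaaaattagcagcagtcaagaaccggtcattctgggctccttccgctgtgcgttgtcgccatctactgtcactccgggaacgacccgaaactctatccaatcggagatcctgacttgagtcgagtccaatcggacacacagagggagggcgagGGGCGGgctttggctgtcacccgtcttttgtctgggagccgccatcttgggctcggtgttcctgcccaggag
Zfp148: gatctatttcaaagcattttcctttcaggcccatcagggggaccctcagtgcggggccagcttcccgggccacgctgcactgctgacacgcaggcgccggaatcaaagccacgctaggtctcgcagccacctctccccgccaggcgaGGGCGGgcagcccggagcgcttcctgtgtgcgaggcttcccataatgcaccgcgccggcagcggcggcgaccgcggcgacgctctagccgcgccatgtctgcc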

How the data were processed

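The values used are counts of reads per gene, deposited by the authors 1 file to a library, after Trim Galore (trimming), STAR (alignment, genome build rn6) and htseq-count (counting). Versions of these tools, the strand setting and the treatment of reads matching near-identical genes are not given in the sources used here, and the methods name Gencode v19 while the identifiers are rat Ensembl genes. The reads that htseq-count set aside by class were left out. From the counts, edgeR 4.0.16 in R 4.3.3 kept genes by filterByExpr (minimum count 10, minimum total 15), which left 7378 of 32754, of which 1418 have a name. TMM factors, 1 model with a mean for each of the 4 groups, the quasi-likelihood test and Benjamini-Hochberg adjustment over all 7378 genes at 0.05 followed. Standard errors are the log2 difference divided by the square root of F. Alternatives were DESeq2 1.42.0, RLE size factors, no filter, a filter of 1 CPM in 3 libraries, only the groups compared, a replicate block, CPM by library total, and leaving out each library in turn. Floors of 3 reads cover counting error only, since PCR copies of a molecule were not marked. The zinc finger genes and lists were chosen with earlier results of these data known. Every member is named; those past the threshold in any comparison are given in full, ordered by class, and of the others the highest and lowest mean level in each class.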

Additional observations from a re-analysis of the deposited data

Results flagged for a closer look

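The FGF18 effect differed between the genotypes by the test of the interaction in 4 of 43 tested genes of the fixed lists (9.30%, beside 10.9% of all genes), none of them a zinc finger member, and in each the call held under all 17 alternatives. For Ezh2 the FGF18 effect was −1.11 in WT and −0.14 in FGFR3/4KO (adjusted p = 0.862, −0.17 to −0.06 with 1 library left out), a difference of 0.98 (adjusted p = 0.00129, 4.55e-05 to 0.00788 over the alternatives). For Etv5 it was 2.64 in WT and 0.78 in FGFR3/4KO, a difference of −1.86 (adjusted p = 0.00126, 8.90e-05 to 0.00903). For Fmod it was −0.57 in WT and 0.21 in FGFR3/4KO, a difference of 0.79 (adjusted p = 0.00505, 7.41e-04 to 0.0248). For Alb it was 1.79 in WT and −2.56 in FGFR3/4KO, a difference of −4.35 (adjusted p = 8.87e-04, 5.84e-08 to 0.00601), at levels of 0 to 28.3 CPM. Alb passed the filter on low counts through 2 WT FGF18 and 3 FGFR3/4KO vehicle libraries alone, the groups that are high in this contrast. The call is thus not independent of the filter. With no filter the adjusted p was 5.84e-08. The FGF18 effect on Alb in FGFR3/4KO had an adjusted p of 0.622, and of 9.83e-04 with no filter on low counts (9.83e-04 to 0.932 over 12 alternatives).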

How the results depend on the processing

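Each call made for a named gene was repeated under each alternative that could test it. Of these repeats 518 kept the call, 110 lost it and none changed sign, and of the 110, 25 were zinc finger members with 1 library left out and 9 zinc finger members under other alternatives. Results that were not called are outside these counts. With only the groups compared in the fit, 1 member (Zc3h15) was lower with FGF18 in WT, against 0. The same setting gave 4 members higher between genotypes with vehicle, against 3, with Zc3h15 and Zfx added and Zbtb44 not tested, and 2 lower with FGF18, against 3, with Zfp68 lost. Between genotypes with vehicle, leaving out 1 library at a time gave 0 to 1 members lower, and with FGF18 it gave 2 to 4 higher. With FGF18, DESeq2 and the fit with no filter each gave 1 member lower (Zfp513), against 3. With the replicate block, 3 members were higher and 1 lower with vehicle, 3 higher and 3 lower with FGF18, and 0 in the FGF18 comparisons and the interaction. Averaged over pairs of libraries from different groups, replicate numbers gave no sign of pairing (mean r of −0.0296 for the same number and 0.0151 for different numbers). Pairing within 1 genotype alone was not tested. Without TMM, the members' summed level in WT vehicle was 2216 CPM against 2117, and that of the chondrocyte markers 6073 against 5804 in WT vehicle and 5961 against 6171 in FGFR3/4KO vehicle. The cause was not tested for any of these shifts.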
